A study of Mus musculus with 4 samples.

Results

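Fc gamma receptors bind the constant part of IgG antibodies on the surface of phagocytes, and the members described here are the 4 mouse receptors Fcgr1, Fcgr2b, Fcgr3 and Fcgr4 with Fcer1g, the common gamma chain that the activating receptors signal through. The members were chosen by gene name, and all 5 were found among the 24473 genes with FPKM values and the 55401 genes with counts. All 5 passed the filter on low counts and were among the 15733 genes tested. BV-2 is an immortalised mouse microglia line. The study sequenced RNA of 2 control libraries, labelled WT as genotype and "sh c" in their titles, and of 2 libraries labelled SIX2 knockdown and "sh s". Every library came from cells given LPS at 100 ng/mL for 24 h, so there was no library without LPS. The vector, the number of clones and whether the libraries of a group were separate cultures were not given in the sources used here, and p-values then measure only the spread between these libraries.

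In phagocytes such as microglia, an IgG-coated particle clusters the activating receptors. Src family kinases then phosphorylate paired tyrosines of the ITAM (immunoreceptor tyrosine-based activation motif) in the gamma chain, and the kinase Syk docks there and starts uptake. Fcgr2b carries an ITIM (immunoreceptor tyrosine-based inhibition motif) in its own tail, which recruits the lipid phosphatase SHIP1 and dampens the activating signal. The balance between activating receptors and Fcgr2b is known to set how strongly a macrophage responds to immune complexes.

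The coding stretches that separate these roles are shown first, because they say which member can signal in which direction. They were read from GENCODE M21 transcripts on GRCm38, 5′ to 3′ on the coding strand, and capitals mark tyrosine codons of the motif. The Fcer1g stretch holds both ITAM tyrosines, lies at coding bases 193 to 237 of Fcer1g-201 with 12 flanking bases on each side, and spans chr1:171230067-171230084 in exon 4 and chr1:171229877-171229927 in exon 5, minus strand. The Fcgr2b stretch holds the ITIM tyrosine, lies at coding bases 949 to 966 of Fcgr2b-201 with the same flanks, and is in the last exon, exon 8, at chr1:170961059-170961100, minus strand.
Fcer1g ITAM: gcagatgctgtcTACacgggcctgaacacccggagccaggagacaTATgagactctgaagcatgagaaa
Fcgr2b ITIM: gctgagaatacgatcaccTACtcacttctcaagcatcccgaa
The ITAM pattern was found in 1 of the 2 coding transcripts of Fcer1g and in no coding transcript of the 4 receptors. The looser ITIM pattern was found once in each of the 4 coding transcripts of Fcgr2b, and it matched by letters in Fcgr1, Fcgr4 and Fcer1g as well, so a match alone marks no working motif.

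Fcgr3 and Fcgr2b have near-identical ectodomains, and this limits how well counting can tell them apart. Of the 1298 stretches of 50 bases in Fcgr3-201, 166 (12.8%) also occurred in Fcgr2b, as did 4.75% of those of Fcgr2b-201 in Fcgr3. No stretch of 50 bases was shared between any other pair of members. The longest coding stretch that both share, 129 bases, is in exons 3 and 4 of each: chr1:171057691-171057792 and chr1:171054167-171054193 for Fcgr3-201, chr1:170967980-170968081 and chr1:170966674-170966700 for Fcgr2b-201, all on the minus strand.
Fcgr3 and Fcgr2b shared stretch: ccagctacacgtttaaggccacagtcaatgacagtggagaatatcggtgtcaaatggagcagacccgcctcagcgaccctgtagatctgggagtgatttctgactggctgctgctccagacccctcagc
How the authors' counting shared reads from such a stretch between the 2 genes was not given in the sources used here, so the values of Fcgr3 and Fcgr2b are less certain than those of the other members.

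Among the activating receptors Fcgr1, the high-affinity receptor that binds single IgG molecules, fell in the knockdown. Fcgr1 (ENSMUSG00000015947) lies at chr3:96282909-96293969 on the minus strand. Its TMM-scaled CPM, the library's counts per M counted, were 110 and 124 in the 2 control libraries and 78.8 and 80.2 in the 2 knockdown libraries. Both knockdown libraries were below both controls, with little spread between them. The group means were 117 ± 9.67 and 79.5 ± 0.992 CPM (SD, n = 2 each), a log2 difference of -0.56 ± 0.09 (SE, 95% interval -0.76 to -0.35), so that Fcgr1 fell by 32.0% (edgeR quasi-likelihood test, adjusted p = 0.0475). This call sits close to the threshold of 0.05: leaving out any 1 of the 4 libraries gave adjusted p from 0.0884 to 0.219, with log2 differences from -0.64 to -0.47. In bulk RNA, fewer cells that express a receptor and less of its RNA per cell cannot be told apart.

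Fcgr4, the activating receptor that binds IgG2a and IgG2b with intermediate affinity, had values of the same shape without passing the threshold. Fcgr4 (ENSMUSG00000059089) lies at chr1:171018920-171029761 on the plus strand. Its CPM were 25.2 and 27.1 in controls and 16.1 and 17.6 in the knockdown. The groups did not overlap. The log2 difference was -0.63 ± 0.12 (SE, 95% interval -0.93 to -0.34), which is -35.6%, with adjusted p = 0.0904 by the edgeR quasi-likelihood test. DESeq2, which called 5.09% of all genes, gave an adjusted p of 0.00119. The same edgeR test without a filter on low counts, which called 1.3%, gave 0.0438. Fcgr4 was called in these 2 of 16 alternative fits.

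Fcgr3, the low-affinity activating receptor for immune complexes, differed between the 2 knockdown libraries by more than between the groups. Fcgr3 (ENSMUSG00000059498) lies at chr1:171051174-171064935 on the minus strand. Its CPM were 39.1 and 38.1 in controls and 32.6 and 41.9 in the knockdown, so the knockdown libraries lay on either side of the controls. The log2 difference was -0.05 ± 0.14 (SE, 95% interval -0.37 to 0.28, edgeR adjusted p = 0.930). Leaving out knockdown replicate 1 turned it to 0.12 and leaving out knockdown replicate 2 to -0.24. The interval still includes a decrease of 0.37, so these libraries do not show that Fcgr3 was unaffected.

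Fcgr2b, the inhibitory receptor, was also lower in both knockdown libraries, within a wide spread. Fcgr2b (ENSMUSG00000026656) lies at chr1:170958617-170976547 on the minus strand. Its CPM were 35.6 and 45.6 in controls and 29.7 and 31.8 in the knockdown. The groups did not overlap, but the 2 controls differed by more than control 1 did from either knockdown library. The log2 difference was -0.40 ± 0.14 (SE, 95% interval -0.73 to -0.07, edgeR adjusted p = 0.267), and it was -0.21 without control replicate 2 and -0.57 without control replicate 1.

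Fcer1g, the signalling chain, was the most abundant member and moved least among the 4 members whose groups did not overlap. Fcer1g (ENSMUSG00000058715) lies at chr1:171229572-171234365 on the minus strand. Its CPM were 276 and 291 in controls and 257 and 256 in the knockdown. Both knockdown libraries were below both controls by a small margin. The log2 difference was -0.14 ± 0.07 (SE, 95% interval -0.31 to 0.02, edgeR adjusted p = 0.410).

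**Figure D1:**
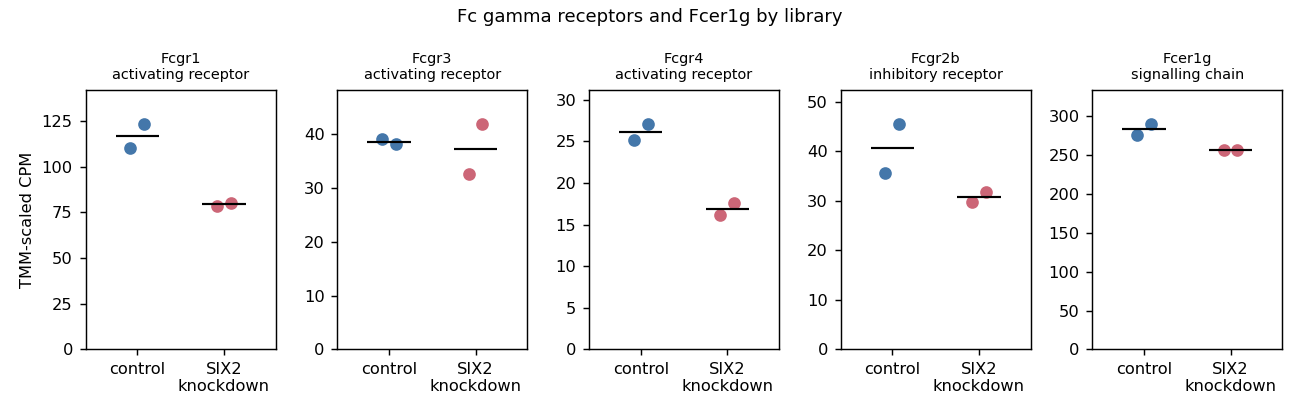
TMM-scaled CPM of each member in the 2 control and 2 knockdown libraries, 1 point per library and a bar at the group mean, each panel with its own axis from 0. Fcgr1 and Fcgr4 show the clearest gap between groups, and the knockdown libraries of Fcgr3 lie on either side of the controls.

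Over the 5 members, 1 was called lower, against 0.547% of all genes tested that were called lower, and 0 were called higher (0.407% of all genes). The fitted difference was below 0 for 5 of 5 members (51.1% of all genes), with a median of -0.40, against -0.01 over all 15733 genes. At an unadjusted p under 0.05, 3 members were lower, as were 6.7% of all genes, and 0 were higher (7.52% of all genes). In 4 of 5 members both knockdown libraries were below both controls, a pattern that 23.8% of all genes had.

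Levels of different genes were compared on the deposited FPKM, which are scaled to gene length. Fcer1g had 286 and 304 FPKM in controls and 261 and 260 in the knockdown, far above every receptor. Fcgr1 followed with 38.4 and 43.7 FPKM in controls and 27.1 and 27.4 in the knockdown. On this scale it was the most abundant receptor in all 4 libraries.
Fcgr3 had 20.4, 20.04, 16.7 and 21.4 FPKM in control 1, control 2, knockdown 1 and knockdown 2, and Fcgr4 had 18.1, 19.7, 11.4 and 12.4 in the same order. Fcgr3 and Fcgr4 were next to each other in the controls, where their means, 20.2 ± 0.227 and 18.9 ± 1.13 FPKM (SD, n = 2), differed by little more than the spread of Fcgr4. In the knockdown Fcgr3 was above Fcgr4 in both libraries. Fcgr2b was lowest, with 5.55, 7.20, 4.56 and 4.85 FPKM.

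The FPKM of Fcgr2b depend on the length it is divided by. The length implied by counts and FPKM was 1.11 times the summed length of all annotated exons in all 5 members, which for Fcgr2b, with 7 transcripts, is 5.79 kb against 3.544 kb for its longest transcript. For Fcgr1 and Fcgr4 the 2 lengths are equal. With CPM per kb of the longest transcript, Fcgr2b was at 11.5 ± 2.00 in controls and 8.67 ± 0.419 in the knockdown (SD, n = 2 each), still below Fcgr4 at 20.8 ± 1.09 and 13.4 ± 0.862. On that scale the group means kept the order of the 5 members, but in knockdown 2 Fcgr3, at 31.1, was level with Fcgr1, at 31.0.

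The balance of activating against inhibitory receptor did not differ between groups beyond the spread of the libraries. The summed FPKM of Fcgr1, Fcgr3 and Fcgr4 over that of Fcgr2b were 13.9 and 11.6 in controls and 12.1 and 12.6 in the knockdown. The knockdown ratios lay between the 2 controls. The log2 difference was -0.04 (exact permutation test, two-sided, p = 1, n = 2 each), and 2 against 2 libraries cannot give a p below 0.333. With CPM per kb of the longest transcript the ratio was 8.32 in controls and 8.27 in the knockdown, a log2 difference of -0.01. The sign was not stable: it became 0.092 without control replicate 1, 0.083 without Fcgr1 in the sum and 0.022 without Fcgr4.

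The single receptors stood differently against Fcgr2b. In log2 ratio of FPKM, knockdown minus control, Fcgr1 over Fcgr2b differed by -0.16, Fcgr4 over Fcgr2b by -0.24 and Fcgr3 over Fcgr2b by 0.33. In each of these 3 ratios the groups did not overlap, and each had the smallest p the design allows (exact permutation test, p = 0.333, adjusted over 13 ratios 0.433). For Fcgr3 over Fcgr2b that rests on 3.667 in control 1 against 3.670 in knockdown 1. The controls decide the sizes: without control replicate 1 the differences were -0.067, -0.12 and 0.53, and without control replicate 2 they were -0.26, -0.37 and 0.13, in the same order. Among ratios between receptors, the largest difference was in Fcgr3 over Fcgr4, with ratios of 1.12 and 1.02 in controls and 1.47 and 1.72 in the knockdown, a log2 difference of 0.57 (exact permutation p = 0.333). Fcgr1 over Fcgr4 overlapped between groups, at 2.12 and 2.21 in controls and 2.38 and 2.21 in the knockdown (log2 difference 0.08).

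**Figure D2:**
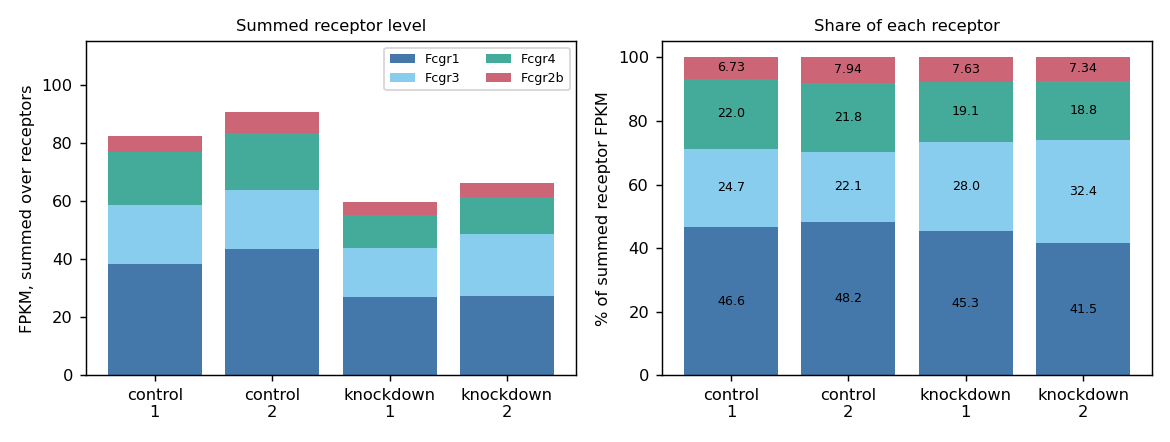
Left, FPKM summed over the 4 receptors in each library, stacked by receptor; right, each receptor's percent of that sum, with the value printed. The sum is 82.5 and 90.7 in controls and 59.8 and 66.1 in the knockdown, and the share of Fcgr2b stays between 6.73% and 7.94%.

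As a share of all receptor FPKM, Fcgr1 made up 46.6% and 48.2% in controls and 45.3% and 41.5% in the knockdown. Fcgr4 made up 21.99% and 21.8% against 19.1% and 18.8%. Fcgr3 was the 1 receptor with a larger share in both knockdown libraries than in both controls, 28.0% and 32.4% against 24.7% and 22.1%. The share of Fcgr2b overlapped between groups, as the stacked bars show.

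The ratio of the signalling chain to its receptors was higher in both knockdown libraries, in a design too small for its test to pass a threshold of 0.05. Fcer1g over the summed activating receptors was 3.71 and 3.65 in controls and 4.73 and 4.24 in the knockdown. Both knockdown ratios were above both controls, a log2 difference of 0.28 (exact permutation test, p = 0.333, adjusted over 13 ratios 0.433). The difference was 0.41 against Fcgr1 alone, 0.49 against Fcgr4 and -0.08 against Fcgr3, where the groups overlapped. Tyrobp, the other ITAM chain of myeloid cells, was used for comparison: Fcer1g over Tyrobp was 0.694 and 0.702 in controls and 0.648 and 0.632 in the knockdown, a log2 difference of -0.13 without overlap (exact permutation p = 0.333).

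**Figure D3:**
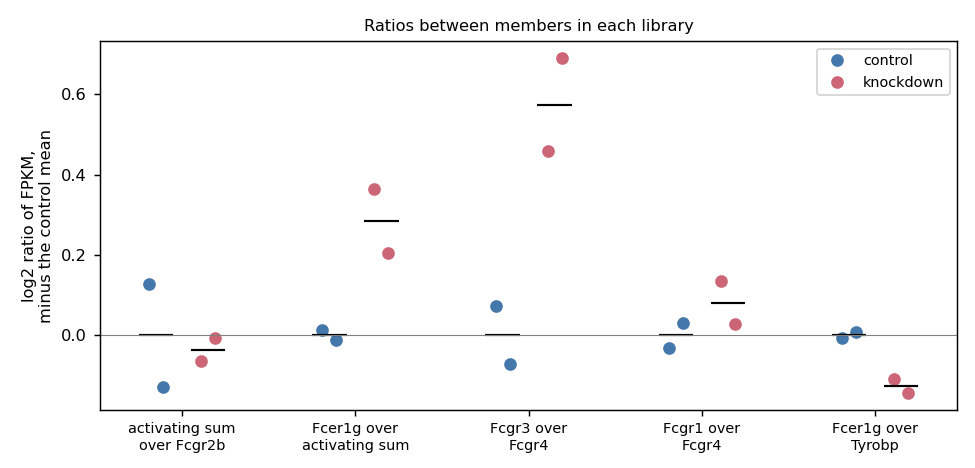
Log2 ratios of FPKM in each library, minus the control mean of that ratio, for 5 of the 13 ratios; points are libraries and bars are group means. The knockdown points of Fcgr3 over Fcgr4 are the highest, and those of the activating sum over Fcgr2b lie between the 2 controls.

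Fcgr1 and Fcgr4 lie on different chromosomes, and of all pairs of members they were closest in pattern: the root mean square distance between their centred log2 CPM over the 4 libraries was 0.059. The largest distance was 0.303, between Fcgr3 and Fcgr4. Because these 2 genes had like patterns over the libraries, their promoters are shown with that of Fcgr3. Each is the 250 bases before the RefSeq start site on GRCm38.p6, printed in the direction of transcription, from chr3:96293970-96294219 (minus strand) for Fcgr1, chr1:171018676-171018925 (plus strand) for Fcgr4 and chr1:171059404-171059653 (minus strand) for Fcgr3. All 5 members were matched in RefSeq. Capitals mark every match to the motifs searched.
Fcgr1 promoter: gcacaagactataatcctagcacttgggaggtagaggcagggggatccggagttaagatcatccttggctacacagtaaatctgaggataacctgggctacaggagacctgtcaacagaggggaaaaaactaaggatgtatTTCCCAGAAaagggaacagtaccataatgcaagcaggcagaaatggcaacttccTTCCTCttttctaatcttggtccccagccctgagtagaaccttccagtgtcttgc
Fcgr4 promoter: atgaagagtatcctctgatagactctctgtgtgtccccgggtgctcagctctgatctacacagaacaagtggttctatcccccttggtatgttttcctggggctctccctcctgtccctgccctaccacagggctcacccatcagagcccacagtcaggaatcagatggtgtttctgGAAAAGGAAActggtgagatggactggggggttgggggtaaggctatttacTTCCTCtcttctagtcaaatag
Fcgr3 promoter: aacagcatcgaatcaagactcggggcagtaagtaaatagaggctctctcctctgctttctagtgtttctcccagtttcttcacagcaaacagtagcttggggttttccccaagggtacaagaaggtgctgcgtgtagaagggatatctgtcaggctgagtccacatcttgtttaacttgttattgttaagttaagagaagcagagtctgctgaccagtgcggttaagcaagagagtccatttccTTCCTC
4 motifs were searched on both strands. GAGGAA, the core bound by the myeloid factor PU.1, occurred once in each of these 3 windows, as TTCCTC 50 to 55 bases before the start of Fcgr1, 17 to 22 before that of Fcgr4 and 1 to 6 before that of Fcgr3, and it was not in the windows of Fcgr2b and Fcer1g. Of 32817 promoter windows of this length, 23.3% held it. RefSeq gives another start site of Fcgr3, and the same match lies 10 to 15 bases before that site. Both Fcgr3 windows lie inside the gene body given above, and the bases before the 5′ end of that gene model were not searched. TTCNNNGAA, the gamma-activated site bound by STAT factors, was in the window of Fcgr1 as TTCCCAGAA and in 7.01% of all windows. The element bound by IRF factors, GAAA and GAAA around any 2 bases, was in the window of Fcgr4 as GAAAAGGAAA and in 2.97% of all windows. TCAGGTTTC, the MEF3 site bound by SIX2 and related factors, was in none of the 5 windows and in 0.387% of all. These matches are descriptions of the letters and say nothing of binding in these cells.

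The chromosome 1 members share their region with other genes, of which none at a similar level was called. Fcgr2b, Fcgr4, Fcgr3 and Fcer1g lie in that order. Within 200 kb of these members, 15 neighbours reached 5 CPM on average. Their log2 differences ranged from -0.17 to 0.22 and 0 were called. Near Fcgr1 on chromosome 3, 4 neighbours at that level ranged from -0.35 to 0.60, and 0 were called. The highest of these, Bola1, had 13.1, 73.7, 69.4 and 61.7 CPM over the 4 libraries, so that control 1 alone set its difference. Of all 46 tested neighbours, 1 was called: Gm20633, a gene model at chr3:96243550-96246380, with 0.682 and 0.857 CPM in controls and 3.32 and 4.22 in the knockdown (log2 difference 2.29, edgeR adjusted p = 0.0485, against 0.407% of all genes called higher). Without any 1 library its adjusted p by edgeR was from 0.101 to 0.256. At an unadjusted p under 0.05, 2 neighbours were lower (4.35%, against 6.7% of all genes) and 1 higher (2.17%, against 7.52%). The 2 lower, named outside the naming rule after their values were seen, were H2bc21 and Gm10522. H2bc21, near Fcgr1, had a log2 difference of -0.35 (edgeR adjusted p = 0.261). Gm10522, near Fcgr2b, had 0.656, 0.226, 0 and 0 CPM over the 4 libraries (edgeR adjusted p = 0.181).

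**Figure D4:**
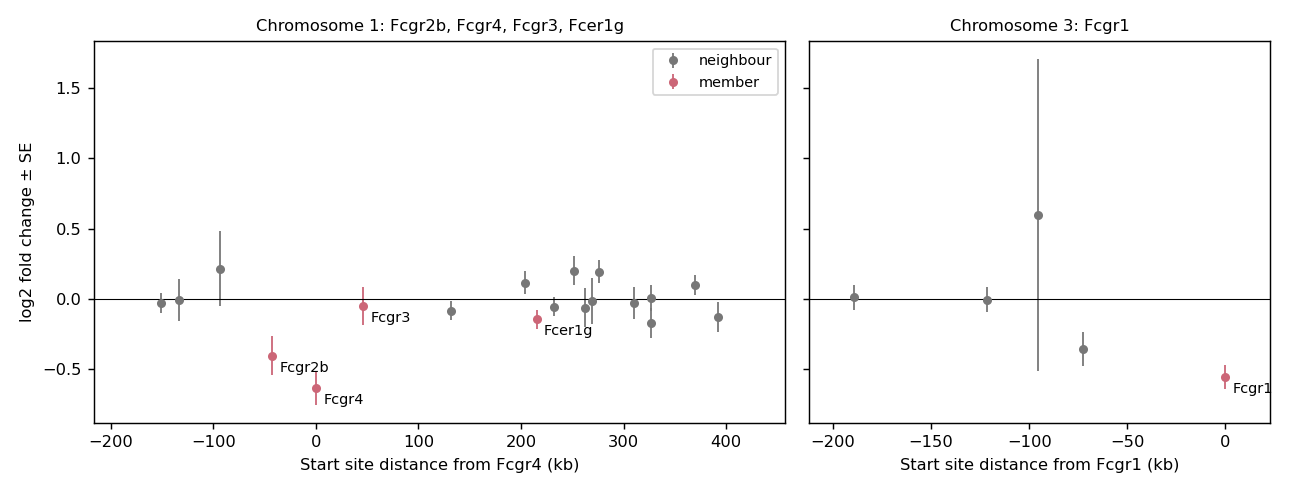
Log2 fold change with its SE (edgeR, n = 2 libraries each) of members and of neighbours that reached 5 CPM on average, by distance of start sites in kb from Fcgr4 on chromosome 1 and from Fcgr1 on chromosome 3. The 15 neighbours on chromosome 1 lie between -0.17 and 0.22, and Fcgr4 and Fcgr2b lie below them.

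Gene models that overlap the members hold few counts. Mir6546 inside Fcgr3 and Gm26110 inside Fcgr4 had 0 counts in all 4 libraries, and Gm38204, antisense to Fcgr2b, had 4, 0, 9 and 4. Whether counting used the strand is one more step that was not given in the sources used here.

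Of 32 genes of activating signalling, the kinases, adaptors and lipases that act after the ITAM, 0 were called by edgeR. At an unadjusted p under 0.05, 5 were lower (15.6%, against 6.7% of all genes) and 6 higher (18.8%, against 7.52%), with a median log2 difference of -0.01; DESeq2 called 5 of them and limma-voom, which called 1.51% of all genes, 0. The 2 most abundant were Plcg2, the phospholipase that releases calcium, at 271, 263, 311 and 293 CPM (log2 difference 0.18), and Vav1, an exchange factor for Rac, at 204, 202, 201 and 191 (-0.05). Syk, which docks on the ITAM and is named here outside the naming rule after its values were seen, had 132 and 131 CPM in controls and 116 and 110 in the knockdown (-0.22 ± 0.07 SE, edgeR adjusted p = 0.263).

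The phosphatases and brakes behind the ITIM held no edgeR call either. Of 19 tested genes of inhibitory signalling, edgeR called 0. At an unadjusted p under 0.05, 3 were lower (15.8%, against 6.7% of all genes) and 2 higher (10.5%, against 7.52%). The median log2 difference was -0.01. DESeq2 called 1 and limma-voom 0. Ptpn6, the tyrosine phosphatase SHP-1, had 394, 409, 350 and 373 CPM (log2 difference -0.15). Inpp5d, which encodes the SHIP1 phosphatase that Fcgr2b recruits and is also named outside the rule, had 120, 114, 119 and 117 CPM, with overlapping groups (0.02 ± 0.07 SE).

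Of 40 tested genes of the phagocytic cup, the actin machinery that closes around a particle, edgeR called 0, with 9 lower (22.5%, against 6.7% of all genes) and 5 higher (12.5%, against 7.52%) at an unadjusted p under 0.05 and a median of 0.02, while DESeq2 called 4 and limma-voom 0. Cfl1, an actin-severing protein, had 2114, 1939, 1959 and 1877 CPM (-0.08). Pfn1, an actin monomer carrier, had 1575, 1463, 1627 and 1456 CPM (0.02, a sign that other scalings turned).
In the wider KEGG term for Fc gamma receptor-mediated phagocytosis in the deposited annotation, 82 of 84 genes were tested, with 2 called lower, 1 higher and a median of -0.00, and DESeq2 called 9. The term holds Fcgr1 itself, which is among its genes called lower. Of all genes tested, edgeR called 0.547% lower and 0.407% higher. At an unadjusted p under 0.05, 15 of the term were lower, again with Fcgr1 (18.3%, against 6.7% of all genes), and 10 higher (12.2%, against 7.52%). Besides Fcgr1, the edgeR calls were Marcks, an actin-binding substrate of protein kinase C, at 108 and 124 CPM against 66.6 and 65.1 (-0.82 ± 0.09 SE, edgeR adjusted p = 0.0183), and Pak1, a kinase under Rac and Cdc42, at 15.0 and 16.4 against 30.1 and 30.3 (0.95 ± 0.12 SE, adjusted p = 0.0237). Leaving out 1 library ended the call of Pak1 in each case (edgeR adjusted p from 0.0851 to 0.134). Marcks lost its call without control replicate 2 (0.0879), knockdown replicate 1 (0.0637) or knockdown replicate 2 (0.119), and kept it without control replicate 1 (edgeR adjusted p = 0.0403).

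Of 20 tested receptors and chains of the list that signals through Fcer1g or Tyrobp, edgeR called 0. At an unadjusted p under 0.05, 0 were lower (6.7% of all genes) and 3 higher (15.0%, against 7.52%). The median log2 difference was -0.07. DESeq2 called 3, limma-voom 0 and edgeR without a filter on low counts 2. Tyrobp had 303 and 316 CPM in controls and 303 and 310 in the knockdown (-0.02). Trem2, a lipid receptor that signals through Tyrobp, had 58.1 and 59.9 CPM against 87.8 and 76.4 (0.48 ± 0.10 SE, edgeR adjusted p = 0.0969). It was called by DESeq2 (adjusted p = 0.00365) and by edgeR without the filter (0.0459).

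Among 23 tested genes of a list drawn up for other ITIM receptors, 1 was called lower and 0 higher by edgeR, while DESeq2 called 5, limma-voom 1 and edgeR without the filter 2. Of all genes tested, edgeR called 0.547% lower and 0.407% higher. At an unadjusted p under 0.05, 6 of the list were lower (26.1%, against 6.7% of all genes) and 0 higher (7.52% of all genes). Their median was -0.30, with 15 below 0, against -0.01 over all genes. Because not every gene of the list is known to carry an ITIM, this is no median of ITIM receptors. The called gene was Clec4a1, a C-type lectin that, like Clec4a3 in the same list, is not known to carry an ITIM, so the call is not of an ITIM receptor. It was at 69.7 and 72.4 CPM in controls and 41.4 and 47.6 in the knockdown (-0.67 ± 0.10 SE, edgeR adjusted p = 0.0423). Leaving out any 1 library ended this call (adjusted p from 0.102 to 0.214 by edgeR). The other 5, named after their values were seen, were Pirb, Siglece, Clec4a2, Clec4a3 and Pilra, with log2 differences from -1.36 to -0.56 and edgeR adjusted p from 0.0934 to 0.303. Most other immunoglobulin receptors were too low to test: 4 of 14 were tested and 0 called, with 0 in either direction at an unadjusted p under 0.05 and 0 by DESeq2 or limma-voom. The 2 most abundant were Fcrl1, an Fc receptor-like protein, at 21.7, 19.5, 21.7 and 23.9 CPM, and Fcgrt, the neonatal Fc receptor, at 5.95, 4.85, 5.90 and 5.40.

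Of 30 genes in a list drawn up for regulators of Fc receptor transcription, edgeR called 1 lower and 0 higher. Whether each of them acts on these receptors was not tested. Over all genes tested, edgeR called 0.547% lower and 0.407% higher. Of the 30, 7 were lower (23.3%, against 6.7% of all genes) and 0 higher (7.52% of all genes) at an unadjusted p under 0.05. The median log2 difference of the 30 was -0.09, against -0.01 over all genes. DESeq2 called 5 and limma-voom 2. The called gene was Socs3, the feedback inhibitor of cytokine signalling through STAT3, at 65.4 and 65.2 CPM in controls and 43.2 and 45.6 in the knockdown (-0.56 ± 0.08 SE, edgeR adjusted p = 0.0451). Spi1, which encodes PU.1 and is named outside the rule, had 203, 191, 199 and 188 CPM, with overlapping groups (-0.03). Leaving out any 1 library ended the call of Socs3 (edgeR adjusted p from 0.131 to 0.219).

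**Figure D5:**
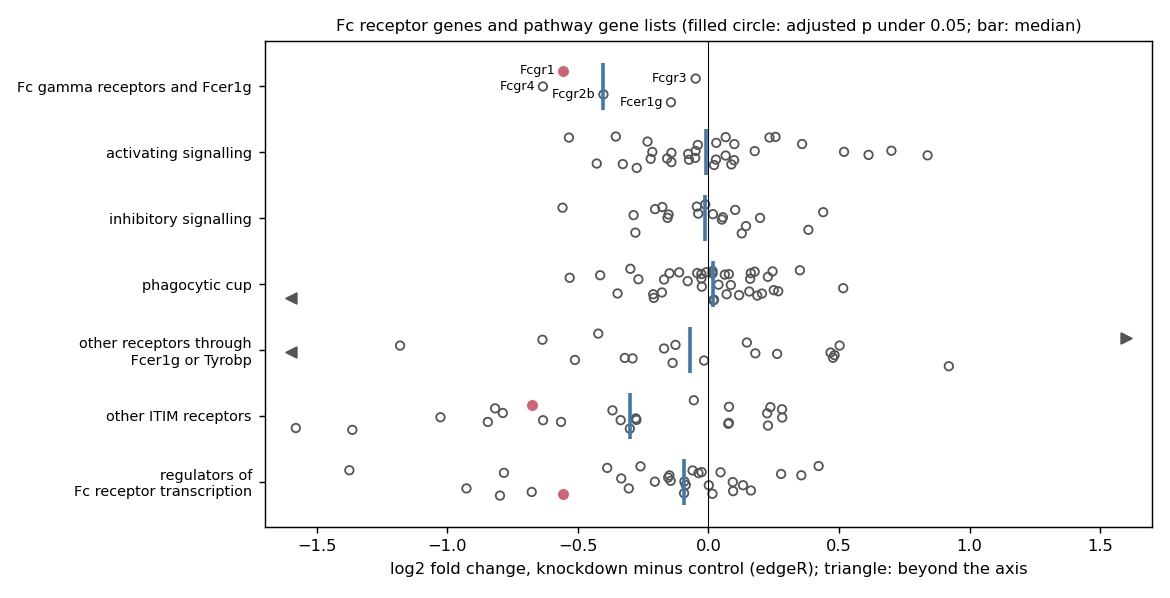
Log2 fold change of each tested gene (circles, filled where the edgeR adjusted p was under 0.05, triangles where beyond the axis), with a bar at the median of each list. The bar of the 5 members is at -0.40. That of the list drawn up for other ITIM receptors, not all known to carry the motif, is at -0.30. The other lists are within 0.10 of 0.

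By pattern over the 4 libraries, among the 7045 tested genes at 20 CPM or more on average, those closest to Fcgr1 were Pld4, Vsir and Tnfaip3 (root mean square distance 0.020, 0.029 and 0.036 in log2 CPM). Pld4, an endolysosomal exonuclease, had 135 and 151 CPM in controls and 99.1 and 101 in the knockdown. Closest to Fcgr4 were Adgre1, which encodes the macrophage marker F4/80, Cybb, the catalytic subunit of the phagocyte oxidase, and Ets1, a transcription factor (0.019, 0.028 and 0.031). Adgre1 had 255 and 272 CPM against 166 and 176, and Cybb had 170 and 180 against 109 and 114. Closest to Fcgr3 were Homer1, Ccdc25 and Orc3, to Fcgr2b Rpl19-ps11, Mapkapk5 and Ptov1, and to Fcer1g Mrpl16, Mia3 and Tbc1d1. With 4 libraries such likeness is a description only.

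Across the whole series, the libraries held 61.0 to 75.7 M counts, and edgeR called 150 genes (0.953%), 64 higher and 86 lower. Six2, the targeted gene, had 0 counts in all 4 libraries, where a floor of 12 counts (3 fragments) allows up to 0.159 to 0.197 CPM, so the knockdown could not be checked on its RNA. All 12 markers of microglia and macrophages were above that floor in every library, though Cx3cr1 was between 0.257 and 0.853 CPM. The summed level of these markers was 2818 and 2877 CPM in controls and 2516 and 2531 in the knockdown. Of the 12, 4 were called lower, Csf1r, Aif1, Adgre1 and Lyz2, and 0 higher, against 0.547% and 0.407% of all genes. Csf1r, Adgre1 and Lyz2 were then left out after their values were seen. The sum of the other 9, Aif1 among them, was 1932 and 1950 against 1970 and 1957 CPM. That choice favours a level sum, so the sum says nothing of the markers as a whole. The part of the 4 lower markers in the Fcgr1 result was not tested. Markers of mast cells, which also use Fcer1g, summed to at most 0.554 CPM, with 5 of 8 at 0 in all libraries, and those of T and NK cells to at most 0.157 CPM, with 6 of 8 at 0. Markers of neutrophils, which also carry Fc gamma receptors, summed to 15.6 and 10.2 CPM in controls and 5.75 and 0.853 in the knockdown, with 1 of 8 above the floor in every library and Ly6g at most 0.054 CPM. Trace markers of neurons, astrocytes and fibroblasts were lower as well. Those of neurons were at 7.38 and 7.10 against 3.58 and 0 CPM, and those of astrocytes at 8.05 and 6.94 against 4.04 and 2.13. Those of fibroblasts were at 1.39 and 1.67 against 0.702 and 0.0632. Markers of dendritic cells, 2 of 7 above the floor, overlapped between groups, at 6.67 and 7.21 against 7.56 and 5.24 CPM. Mast cell markers overlapped too. The part of these trace transcripts in the Fcgr1 result was not tested. Of 8 B cell markers, 3 were above the floor. Among these Ighm was called higher, at 56.8 and 60.6 CPM against 87.8 and 86.6, while Ms4a1 was at most 0.108 CPM. The summed B cell markers were 76.9 and 74.8 against 99.5 and 98.3 CPM. Without Ighm, left out after its values were seen, they were 20.1 and 14.2 against 11.7 and 11.6.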

How the data were processed

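RNA-seq libraries of BV-2 cells, 2 control and 2 SIX2 knockdown, were grouped by the labels' genotype. The deposited values are estimated counts per Ensembl gene, not normalised by the authors, and FPKM, which the authors scaled per kilobase and per library, per the file headers. Bowtie 0.12.2 and build mm8 are named per the submitters' processing notes. What program counted the reads was not given in the sources used here. Coordinates of 86.4% of shared genes, and of all 5 members, were those of GENCODE M21 on GRCm38. Low counts peaked at multiples of 4, which made up 42.1% to 47.2% of them by library. For the floor and for 1 alternative fit, 1 fragment was therefore taken as 4 counts. On that scale the libraries held 15.2 to 18.9 M fragments. The reported edgeR test used the undivided counts. Another 12 columns matched no labelled sample and were not used.

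The test across genes was run with edgeR 4.0.16 in R 4.3.3 (filterByExpr, TMM, robust quasi-likelihood F test, two-sided) and Benjamini-Hochberg adjustment over all genes tested; the counts were whole, so rounding changed nothing. DESeq2 1.42.0 and limma 3.58.1 served as alternatives. Ratios of FPKM were compared by exact permutation over libraries. The steps were tested on simulated data. Same-numbered libraries deviated from their group means with a correlation of 0.0486 over genes. With 2 libraries per group this cannot show whether same-numbered libraries shared a batch, and the labels name none. Named beside the members were, from each list, up to 4 called genes with the lowest adjusted p or otherwise the 2 with the highest CPM, each called neighbour, and the 3 genes closest in pattern to each member. One gene this rule takes is not reported here. Genes named outside this rule are marked as such, and Bola1 and the cell type markers are also outside it. Members, lists and tests were chosen with earlier results of these data known.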

Additional observations from a re-analysis of the deposited data

How the results depend on the processing

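Fcgr1 was below 0 in all 16 alternative fits and called in 7; the fits that lost the call were FPKM with limma (both pseudocounts), edgeR without the robust option, the replicate block, a threshold of 0.01 and each fit leaving out 1 library. Of these 16, 1 was the reported fit read at a threshold of 0.01, so its log2 difference was the same by construction. The number of members called, 1 as reported, was 2 with DESeq2 and 2 without a filter on low counts (Fcgr1 and Fcgr4). It was 0 on log2(FPKM + 1), 0 on log2(FPKM + 0.1), 0 without the robust option, 0 with the replicate block, 0 at adjusted p under 0.01, and 0 to 0 leaving out 1 library. The number of genes called, 150 as reported, was 801 with DESeq2, 238 with limma-voom, 3 on log2(FPKM + 1), 4 on log2(FPKM + 0.1), 297 without a filter, 7 without the robust option, 7 at 0.01, 0 with the replicate block and 41 to 112 leaving out 1 library. The cause of these differences was not tested. Beside the 0 genes of the replicate block, the unblocked edgeR fit had 1054 lower and 1183 higher at an unadjusted p under 0.05.

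The sign of the activating over inhibitory ratio, -0.04 as reported, turned with Fcgr1 left out of the sum (0.083) and with Fcgr4 left out (0.022). It also turned without control replicate 1 (0.092), and leaving out 1 library gave -0.16 to 0.092. The replicate block gave -0.04, which it had to, because each block holds 1 library of each group. The signalling chain over activating receptors kept its sign, with 0.17 to 0.44 over all alternatives. Leaving out 1 library in the single ratios, also chosen after seeing the data, turned Fcer1g over Fcgr3 (-0.27 to 0.098). A further alternative so chosen, counts per kb of the longest transcript, gave -0.01 and 0.26 for these 2 ratios. Single genes that turned did so mostly on leaving out 1 library: Fcgr3 (-0.24 to 0.12), Tyrobp (-0.047 to 0.015), Fcgrt (-0.072 to 0.22) and Pfn1 (-0.064 to 0.10). Pfn1 also turned with library totals (-0.012), log2(FPKM + 1) (-0.015), log2(FPKM + 0.1) (-0.015) and a minimum of 5 CPM (-0.0011). Six2 and most other immunoglobulin receptors were too low to test, and whether depth or absence of their RNA set this was not tested. The lowest value of any member was 1116 counts.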
